A study of Mus musculus with 2 samples.

Results

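The genes examined here write, maintain and erase DNA methylation in the mouse. They are the 3 DNA methyltransferases Dnmt1, Dnmt3a and Dnmt3b, the Dnmt1 partner Uhrf1, and the 3 dioxygenases Tet1, Tet2 and Tet3. These 7 genes, of 22028 protein-coding genes in the GENCODE vM21 annotation of GRCm38, were taken by symbol, and all 7 were found. Every peak of the histone mark H3K4me3 that overlapped one of their gene bodies or lay within 1000 bp of one of their transcript starts was collected.

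In the study, H3K4me3 was profiled by CATCH-seq, a carrier-assisted ChIP-seq for small cell numbers, in group 2 innate lymphoid cells (ILC2s) of the lung, which are tissue-resident lymphocytes that make type 2 cytokines. About 3000 sorted ILC2s were used for each library, and they came from 8-week-old offspring of wild-type C57BL/6J mice. The comparison asks whether asthma of the mother in pregnancy is followed by a different chromatin state in ILC2s of the adult offspring. Control mothers were sensitized with PBS and alum and then received PBS into the nose between days 4 and 17 of gestation. Asthmatic mothers were sensitized with ovalbumin (OVA) and alum and then received OVA into the nose over the same days. All mothers had therefore received alum and all were mated with untreated males. There was 1 library per group, from 1 pregnant dam per group, so no value has a replicate and the groups could not be tested against each other. Differences between dams and between treatments cannot be told apart.

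A methyl group on the cytosine of a CpG dinucleotide is copied to the new DNA strand after replication by Dnmt1, which Uhrf1 brings to hemimethylated sites. Dnmt3a and Dnmt3b place methyl groups on unmethylated DNA, and the Tet enzymes oxidise 5-methylcytosine, which starts its removal. H3K4me3 lies over transcript starts, above all over CpG-rich ones, and the methyltransferases of the Dnmt3 family bind histone H3 whose lysine 4 is unmethylated. The mark shows where transcription can start and does not measure the amount of RNA or of enzyme.

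The peaks of each library were called separately, and each peak comes with its −log10 p, its −log10 q and its fold over background. None of these is scaled between the libraries, so each peak is given by its place, its width and its percentile by −log10 q among all peaks of its own list. There were 42126 peaks in offspring of control mothers (control list) and 51610 in offspring of asthmatic mothers (asthmatic list). The lists hold no read depth. Solved from the fold and p, the lowest background was 1.83 fragments in the control list and 1.57 in the asthmatic list. Divided by the narrowest peak width of each list (190 and 156 bp), it was 96.1 and 100.4 fragments per 10 kb. Which list is higher thus depends on taking that width as the length counted. The median at a summit was 21 and 18 fragments. Of 18 ILC2 marker genes, 15 had a start peak in the control list and 11 in the asthmatic list, with Rora, Il1rl1, Il2ra and Ptprc in both, Gata3, Il7r, Il5 and Hpgds in the control list alone, and Klrg1, Icos and Il13 in neither. Markers of T cells (8 genes), B cells (6), macrophages (7), neutrophils (6) and fibroblasts (6) had no start peak in either list. Epcam and Cdh1 of 6 epithelial markers and Kdr of 6 endothelial markers had one in the control list alone.

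All 7 genes had a start peak in the control list, where 50.9% of protein-coding genes had one. In the asthmatic list 5 of the 7 had one, against 41.9% of protein-coding genes. The 5 genes marked in both lists were Dnmt1, Dnmt3a, Dnmt3b, Tet2 and Tet3, and 41.2% of all genes were marked in both. Uhrf1 and Tet1 were marked in the control list alone, as were 9.71% of all genes. Of the 11206 genes marked in the control list, 2138 were marked there alone and 9068 in both lists. None of the 7 was marked in the asthmatic list alone, which held for 0.722% of all genes. With only the most upstream start of each gene counted, 4 of the 7 were marked in the control list and 3 in the asthmatic list, beside 47% and 38.3% of all genes. Among the 10000 peaks of highest −log10 p in each list, Dnmt1 and Dnmt3b were marked in both lists and the other 5 genes in neither, against 32.2% of all genes in the control list and 9.32% in the asthmatic list. A start that lacks a peak may still carry signal below the threshold of the caller, and a mark on fewer cells and less of it per cell cannot be told apart.

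The 7 genes have 69 annotated transcripts with 63 distinct starts. A peak lay at 33 of these starts in the control list and at 25 in the asthmatic list, and the latter 25 were all marked in the control list. Among the distinct starts of all protein-coding genes, 42.2% and 34.6% had a peak. The most upstream annotated start of Dnmt1, of Tet1 and of Tet3 had no peak in either list, and the mark of these genes lay at a start further downstream. Each of the 7 places marked in both lists held the start of a protein-coding transcript or lay at most 109 bp from one.

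**Figure D1:**
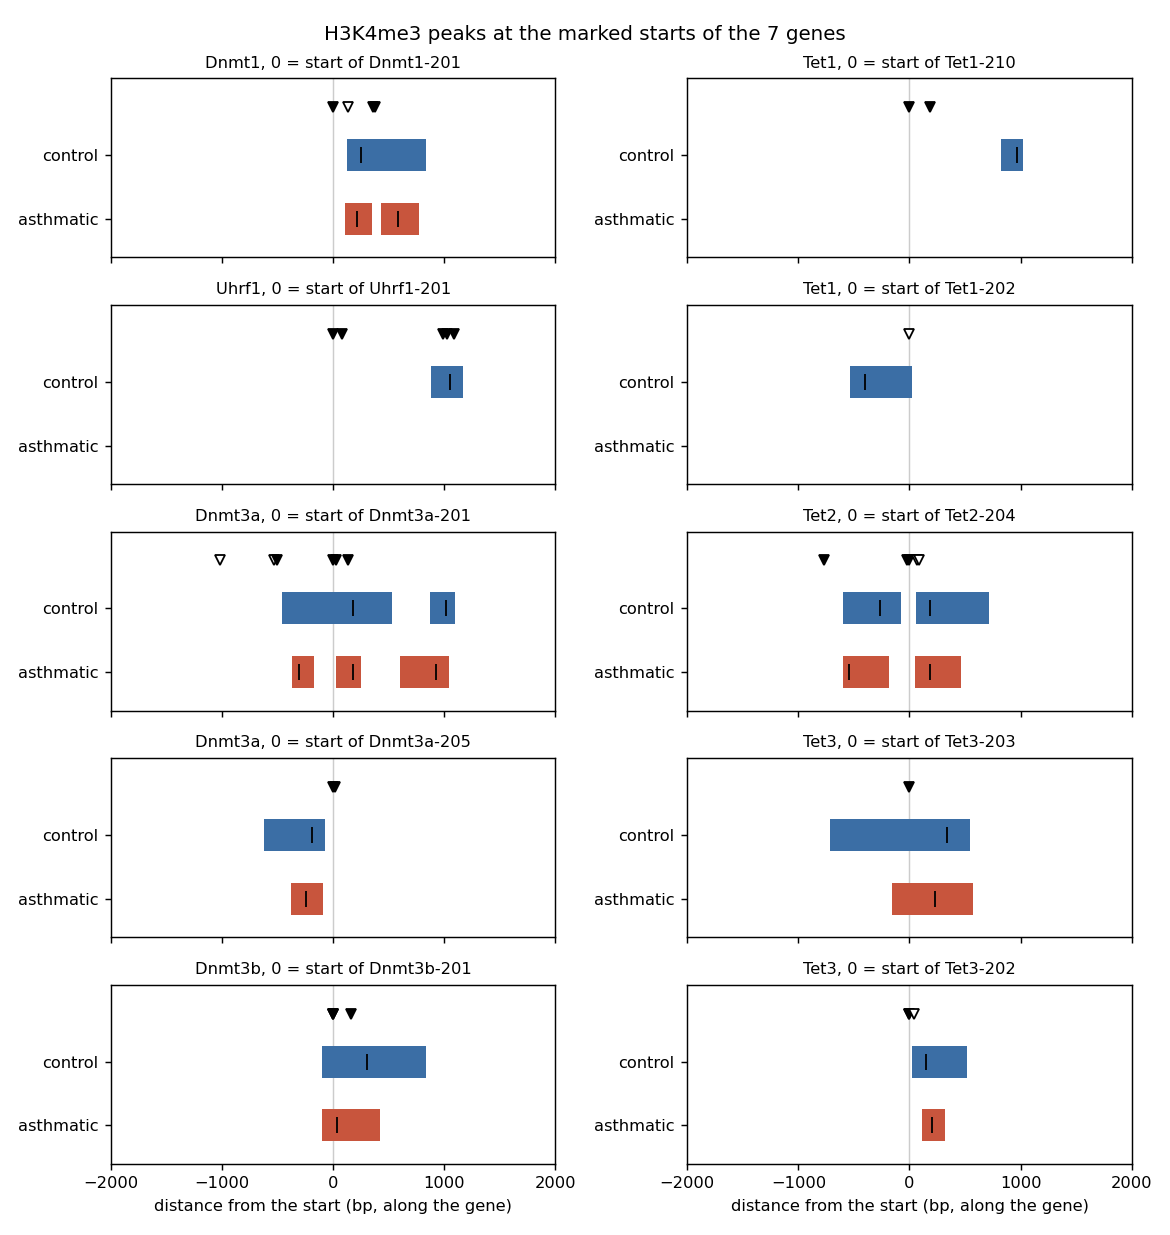
H3K4me3 peaks (bars) at the 10 marked places of the 7 genes, drawn along the gene by distance in bp from 1 annotated start, with the control list in blue and the asthmatic list in red. Small ticks are summits, filled triangles are starts of protein-coding transcripts and open triangles are starts of other transcripts; the panels of Uhrf1 and Tet1 hold a bar in the control list alone, and 7 places hold bars in both lists.

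The sequences of a few starts are shown because the starts that carried the mark differed from those without it in their number of CpG dinucleotides. They were read from the plus or minus strand of GRCm38 as stated, 5′ to 3′, with each CpG in capitals. The first 5 are RefSeq promoters, which run from 250 bases before to 50 bases after a start. All 12 RefSeq promoters of the 7 genes were the same as the genome sequence at their coordinates. The upstream Dnmt1 start (chr9:20959839-20960138, minus strand) had no peak in either list and holds 2 CpG. The downstream Dnmt1 promoter (chr9:20952574-20952873, minus strand) was overlapped by peaks of both lists and holds 33.
Dnmt1 upstream promoter: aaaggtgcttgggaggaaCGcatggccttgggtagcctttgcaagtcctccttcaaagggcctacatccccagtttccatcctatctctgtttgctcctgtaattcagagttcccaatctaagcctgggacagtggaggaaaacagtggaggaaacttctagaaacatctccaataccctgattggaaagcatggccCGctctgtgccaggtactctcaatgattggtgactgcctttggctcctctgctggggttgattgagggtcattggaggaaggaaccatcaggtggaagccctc
Dnmt1 downstream promoter: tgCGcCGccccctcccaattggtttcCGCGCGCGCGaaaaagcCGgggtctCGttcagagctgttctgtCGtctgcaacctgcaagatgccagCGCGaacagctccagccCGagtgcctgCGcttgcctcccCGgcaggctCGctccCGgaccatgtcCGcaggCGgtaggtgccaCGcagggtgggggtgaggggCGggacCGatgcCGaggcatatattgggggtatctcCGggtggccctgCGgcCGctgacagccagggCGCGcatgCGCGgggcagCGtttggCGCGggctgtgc
The upstream Uhrf1 promoter (chr17:56303087-56303386, plus strand) lay outside the peak and holds 12 CpG. The starts there, at 56303321 and 56303400, still count as marked in the control list, by gaps of 879 and 800 bp to the peak. The downstream Uhrf1 promoter (chr17:56304063-56304362, plus strand) was overlapped by the peak of the control list and holds 33.
Uhrf1 upstream promoter: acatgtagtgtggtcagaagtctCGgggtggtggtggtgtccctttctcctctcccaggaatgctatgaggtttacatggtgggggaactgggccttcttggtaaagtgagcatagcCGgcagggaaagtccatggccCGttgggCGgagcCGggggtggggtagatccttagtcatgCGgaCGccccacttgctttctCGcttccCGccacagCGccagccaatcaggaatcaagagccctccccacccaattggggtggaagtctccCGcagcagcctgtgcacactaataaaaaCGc
Uhrf1 downstream promoter: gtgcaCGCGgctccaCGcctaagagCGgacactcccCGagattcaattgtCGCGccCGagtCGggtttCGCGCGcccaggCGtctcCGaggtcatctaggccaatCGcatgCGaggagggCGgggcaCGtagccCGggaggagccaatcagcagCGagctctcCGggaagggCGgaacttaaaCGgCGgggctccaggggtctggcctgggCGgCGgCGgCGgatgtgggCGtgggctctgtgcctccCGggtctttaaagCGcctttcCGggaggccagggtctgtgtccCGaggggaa
The internal Dnmt3a promoter (chr12:3891494-3891793, plus strand) holds 18 CpG and lies at the start of the shorter coding transcripts.
Dnmt3a internal promoter: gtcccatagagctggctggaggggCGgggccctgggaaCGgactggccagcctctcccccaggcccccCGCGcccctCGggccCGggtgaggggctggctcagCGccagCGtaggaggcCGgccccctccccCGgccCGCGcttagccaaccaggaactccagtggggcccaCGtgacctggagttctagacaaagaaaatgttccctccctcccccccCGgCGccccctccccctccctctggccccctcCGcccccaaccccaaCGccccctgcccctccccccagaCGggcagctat
The stretch at Tet1 (chr10:62865545-62865844, minus strand) holds the summit of the stronger Tet1 peak, which was listed in offspring of control mothers alone, and has 12 CpG.
Tet1 peak: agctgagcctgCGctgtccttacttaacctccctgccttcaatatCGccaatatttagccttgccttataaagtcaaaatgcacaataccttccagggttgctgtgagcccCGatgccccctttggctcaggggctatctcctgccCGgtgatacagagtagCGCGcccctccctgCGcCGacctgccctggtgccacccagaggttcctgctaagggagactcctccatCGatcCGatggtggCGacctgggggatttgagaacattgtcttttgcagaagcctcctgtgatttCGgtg
The last stretch is the whole of a peak in an intron of Dnmt3a (chr12:3847050-3847205, plus strand) that was listed in offspring of asthmatic mothers alone. It is a run of C and T without a CpG.
Dnmt3a intron peak: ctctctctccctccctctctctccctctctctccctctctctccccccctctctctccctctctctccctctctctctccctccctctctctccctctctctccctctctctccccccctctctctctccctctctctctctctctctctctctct

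Counted in 300 bases centred on each start, the 25 starts with a peak in both lists held a median of 29 CpG, with a range of 3 to 56. The 8 starts with a peak in the control list alone, 5 of Uhrf1 and 3 of Tet1, held a median of 17.5, with a range of 5 to 27. Starts that lie a few bp apart share most of their window, so a promoter can count several times in these medians. The 30 starts without a peak held a median of 4, and none held more than 11. Over the starts of all protein-coding genes the same medians were 27, 21 and 5, so the order was that of the genome. The exception among the shared starts was that of Dnmt3a-212, a retained-intron transcript, with 3 CpG, which lay 565 bp from the peak of the control list.

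**Figure D2:**
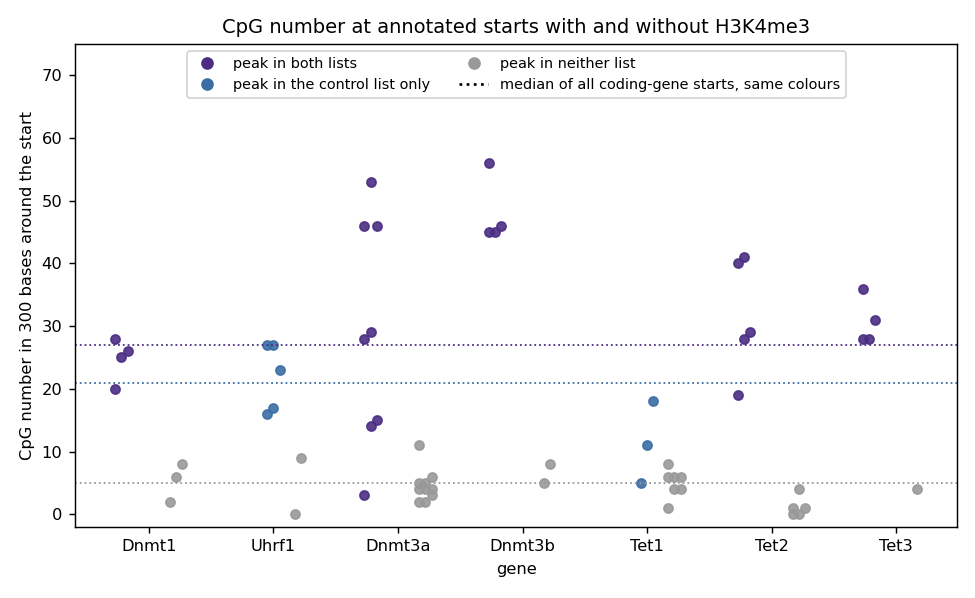
CpG number in 300 bases around each of the 63 annotated starts of the 7 genes (1 point per start), coloured by the list in which the start had a peak. Dotted lines are medians over all protein-coding genes, at 27 for starts marked in both lists, 21 for the control list alone and 5 for neither; the unmarked starts of the 7 genes sit at 0 to 11.

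Dnmt1 (ENSMUSG00000004099.16), the maintenance methyltransferase, lies on the minus strand of chromosome 9 at 20907209 to 20959888. In the control list it had 1 peak at chr9:20952147-20952857, 711 bp wide. Its fold was 7.45 and its −log10 q 14.3, at percentile 84.1. In the asthmatic list 2 peaks, 346 and 247 bp wide, lay at chr9:20952208-20952553 and chr9:20952629-20952875, at percentiles 82.9 and 37.1. Joined, they spanned 668 bp, 0.940 times the width in the control list. The spans of the 2 lists had 650 bp in common, which includes the gap between the asthmatic peaks. The best summit held 26 fragments in the control list (exact Poisson 95% interval 17.0 to 38.1) and 21 in the asthmatic list (13.0 to 32.1), and the intervals overlapped widely. These summits lay at different places, 20952733 in the control list and 20952399 in the asthmatic list. The control summit fell within the 247 bp asthmatic peak, whose own summit held 15 fragments (8.40 to 24.7). Thus Dnmt1 had nearly the same joined span and best percentile in both lists, while the place of the best summit differed. The asthmatic span also held a gap of unlisted bases. The peaks covered the starts of Dnmt1-203 and Dnmt1-205 in at least 1 list and lay within 122 bp of that of Dnmt1-201, which encodes the longest annotated protein at 1620 codons. The upstream start of Dnmt1-202 at 20959888 carried no peak in either list.

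Uhrf1 (ENSMUSG00000001228.14), the reader of hemimethylated CpG that recruits Dnmt1, lies on the plus strand of chromosome 17 at 56303321 to 56323486. Its peak in the control list at chr17:56304200-56304493 was 294 bp wide, at percentile 8.04 of width among genes with a start peak in that list. Its fold was 5.68 and its −log10 q 8.78, at percentile 57.7, with 20 fragments at the summit (12.2 to 30.9). The summit lay 26 bp downstream of the start of Uhrf1-204, and the peak overlapped the starts of 3 of the 5 marked transcripts. The asthmatic list had no peak anywhere on the gene or within 1000 bp of any of its 7 starts. Of 809 control start peaks whose −log10 q was within 0.5 of that of Uhrf1, 44.3% (exact Clopper-Pearson 95% interval 40.8 to 47.8%) overlapped no peak of the asthmatic list. The absence of a Uhrf1 peak was therefore a common outcome for a control peak of this strength. The ILC2 markers Gata3, Il7r, Il5 and Hpgds share this pattern of a peak in the control list alone with Uhrf1 and Tet1. So do markers of other cells, 2 of 6 epithelial (Epcam and Cdh1) and 1 of 6 endothelial (Kdr). The part of other cells in it was not tested.

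Dnmt3a (ENSMUSG00000020661.15), a de novo methyltransferase, lies on the plus strand of chromosome 12 at 3806007 to 3914443 and had 2 separate marked places in both lists. The upstream place holds the starts of Dnmt3a-201 and Dnmt3a-218, which encode 908 codons, and the internal place lies just before the starts of Dnmt3a-205 and Dnmt3a-203, which encode 689 codons. At the upstream place 2 peaks of the control list spanned chr12:3806572-3808128, which is 1557 bp, and 3 peaks of the asthmatic list spanned chr12:3806659-3808073, which is 1415 bp. The ratio was 0.909, and the whole of the asthmatic span lay within the control span. The best −log10 q was 7.93 in the control list, at percentile 50.03, and 8.91 in the asthmatic list, at percentile 69.2, an increase of 19.1 percentile points. The best peak had its summit at 3807207 in the control list and at 3807206 in the asthmatic list.

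At the internal Dnmt3a place the control peak at chr12:3891100-3891654 was 555 bp wide, with a −log10 q of 9.10 at percentile 61.3. The asthmatic peak at chr12:3891345-3891634 was 290 bp wide, with a −log10 q of 4.31 at percentile 9.60. The width ratio was 0.523 and the percentile was 51.7 points lower, the reverse of the upstream place. The summits held 18 (10.7 to 28.4) and 11 fragments (5.49 to 19.7), with intervals that cover counting error only and overlap. Both peaks ended upstream of the start at 3891728, by 74 and 94 bp. By −log10 q the internal place ranked above the upstream one in the control list and below it in the asthmatic list, while by width and by summit fragments (22 and 21 at the upstream place) the upstream place was above the internal one in both lists, with counting intervals of the fragments that overlap (13.8 to 33.3 and 13.0 to 32.1 at the upstream place).

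Dnmt3b (ENSMUSG00000027478.15), the other de novo methyltransferase, lies on the plus strand of chromosome 2 at 153649450 to 153687730. Its control peak at chr2:153649356-153650292 was 937 bp wide with a −log10 q of 12.8, at percentile 79.8. Its asthmatic peak at chr2:153649357-153649879 was 523 bp wide with a −log10 q of 10.9, at percentile 81.8. The upstream edges lay 1 bp apart while the downstream edge was nearer to the start in the asthmatic list, which gave a width ratio of 0.558. All 10 transcripts that start there had their first exon in the peak in both lists. The start of a noncoding gene, Dnmt3bos, also lay within 1000 bp of the peak, and the mark of the 2 genes cannot be told apart.

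Tet1 (ENSMUSG00000047146.17) lies on the minus strand of chromosome 10 at 62804570 to 62908996 and had 2 peaks in the control list and none in the asthmatic list. The stronger peak at chr10:62865281-62865844 was 564 bp wide. Its fold was 6.94 and its −log10 q 10.5, at percentile 69.3, and its summit held 19 fragments (11.4 to 29.7). It covered the start of Tet1-202, a processed transcript without a coding sequence, and its summit lay at −403 bp from that start. The weaker peak at chr10:62886491-62886684 was 194 bp wide with a −log10 q of 3.84, at percentile 4.23, and lay in an intron 640 bp from the start of Tet1-207. The starts of Tet1-206 and Tet1-201, which encode the longest annotated proteins at 2039 and 2007 codons, had no peak in either list and hold 4 and 8 CpG. Of 790 control start peaks with a −log10 q near that of the stronger peak, 29.0% overlapped no asthmatic peak (25.8 to 32.3%), and of 308 near that of the weaker peak, 84.1% (79.5 to 88.0%). Both marked places of Tet1 were thus away from the starts of these 2 longest annotated transcripts. The RefSeq promoter of Tet1 (chr10:62887275-62887574, 17 CpG) is that of the Tet1-207 start, near the weaker peak. Tet1-207 is annotated with 47 codons, and codon numbers alone do not show which start serves a full-length transcript.

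Tet2 (ENSMUSG00000040943.12) lies on the minus strand of chromosome 3 at 133463679 to 133545139. Its start region held 2 peaks in each list, which spanned chr3:133543648-133544966, 1319 bp, in the control list and chr3:133543908-133544971, 1064 bp, in the asthmatic list. The ratio was 0.807, and the spans had 1059 bp in common, gaps between peaks included. The best −log10 q was 8.79 at percentile 57.7 in the control list and 7.38 at percentile 52.3 in the asthmatic list. The 2 peaks lay on either side of the starts of Tet2-201 and Tet2-204, which encode 1912 and 1920 codons, and the gap between them held these starts in both lists. The summits of the downstream peak lay 3 bp apart between the lists. The start of the gene Gm42567 also lay within 1000 bp.

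Tet3 (ENSMUSG00000034832.15) lies on the minus strand of chromosome 6 at 83362373 to 83459084 and, like Dnmt3a, had 2 marked places in both lists. The upstream place is the start of Tet3-203 (1803 codons), where the control peak at chr6:83455850-83457107 was 1258 bp wide and the asthmatic peak at chr6:83455816-83456551 was 736 bp wide, a ratio of 0.585. The percentiles there were 68.7 and 72.1. The internal place is the start of Tet3-202 (1668 codons), where the control peak at chr6:83441160-83441654 was 495 bp wide and the asthmatic peak at chr6:83441355-83441566 was 212 bp wide, a ratio of 0.428. The percentiles there were 69.5 and 75.1. Both Tet3 places were thus narrower and at a slightly higher percentile in the asthmatic list, and at the upstream place the bases listed in the control list alone lay upstream of the Tet3-203 start. The start of B230319C09Rik lay within 1000 bp of the internal place.

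All 5 genes marked in both lists had a narrower joined width in bp in the asthmatic list, as had 92.2% of 9068 genes marked in both. Their median ratio was 0.807, against 0.664 over those genes, with quartiles of 0.451 and 0.842. The order depended on the measure of width. The widest single peak at a start gave a median ratio of 0.558 for the 5 genes and 0.645 over all genes, and among peaks whose −log10 q reached 5 the joined medians were 0.656 and 0.657, while counting only the peak bases within joined domains gave 0.702 and 0.631. Dnmt1 at 0.940 and Dnmt3a at 0.909 lay above the upper quartile and Tet2 at 0.807 below it, while Dnmt3b at 0.558 and Tet3 at 0.585 were under the median. For Dnmt1 and Dnmt3a, whose domains were split into more peaks in the asthmatic list, the widest single peak gave ratios of 0.487 and 0.454. The narrowest peak was 190 bp in the control list and 156 bp in the asthmatic list. In units of it every ratio is larger by the same factor, which puts Dnmt1 at 1.14, Dnmt3a at 1.11, the median of the 5 genes at 0.982 and that of all genes at 0.809. Dnmt3a, Tet2 and Tet3 were among the widest start domains of the control list, at percentiles 96.6, 92.9 and 91.3 of width, and stood at 98.6, 94.6 and 82.1 in the asthmatic list. The genes nearest to the members in both widths, among 9053 genes, were Khdc4 for Dnmt1 (703 and 663 bp), Nsun2 for Dnmt3a (1575 and 1406 bp), Slc7a1 for Dnmt3b (940 and 521 bp), Foxk2 for Tet2 (1322 and 1067 bp) and Ndnf for Tet3 (1266 and 747 bp).

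**Figure D3:**
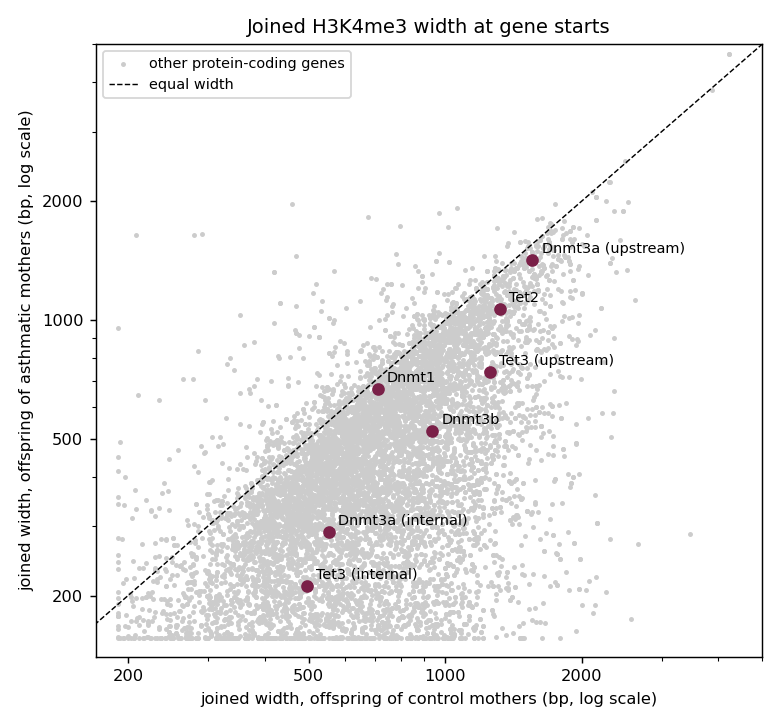
Joined width of H3K4me3 at gene starts in offspring of control mothers (x axis, bp, log scale) and of asthmatic mothers (y axis, bp, log scale), with 1 grey point per protein-coding gene marked in both lists and the 7 shared places of the 5 genes in dark red. All 7 places lie below the dashed line of equal width, from a ratio of 0.940 at Dnmt1 to 0.428 at the internal Tet3 start (in units of the narrowest peak of each list, Dnmt1 and the upstream Dnmt3a place would stand at 1.14 and 1.11 and all genes at a median of 0.809).

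By rank among all peaks, Dnmt3a, Dnmt3b and Tet3 had a higher percentile for their best start peak in the asthmatic list, which is 3 of 5 genes, against 13.3% of all genes marked in both. The median shift of the 5 genes was 1.96 percentile points, from −5.35 for Tet2 and −1.24 for Dnmt1 to 7.85 for Dnmt3a, whose best peak was the internal one in the control list and the upstream one in the asthmatic list, against a median of −21.1 over all genes (quartiles −39.7 and −6.78). Ranked by fold, the median shift was 8.54 for the 5 genes and −10.1 over all genes, and ranked by joined width it was −2.09 and −6.68, so the direction for the 5 genes depended on the measure ranked while their median stayed above that of all genes. By fold the shift was 1.65 for Dnmt1, −9.07 for Dnmt3a and 9.76 for Tet2. The asthmatic list held proportionally fewer start peaks, at 19.5% of its peaks against 30.3% in the control list. By rank among the best start peaks alone, the 5 genes stood in the asthmatic list 22.9 (Tet2) to 41.8 (Tet3) points higher, with a median of 35.7, while the median over all genes was −4.97 and 41.8% of them were higher. Under that rank the members began low, from percentile 17.5 for Uhrf1 and Tet2 to 53.9 for Dnmt1. Among the 3721 shared genes that began under percentile 50, a group chosen after the values were seen, 58.1% were higher and the median shift was 5.21 points, with quartiles of −10.7 and 25.8. Of the members in that group, Dnmt3a (40.9, again between its 2 places), Dnmt3b (35.7) and Tet3 (41.8) were above this upper quartile and Tet2 (22.9) was below it.

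**Figure D4:**
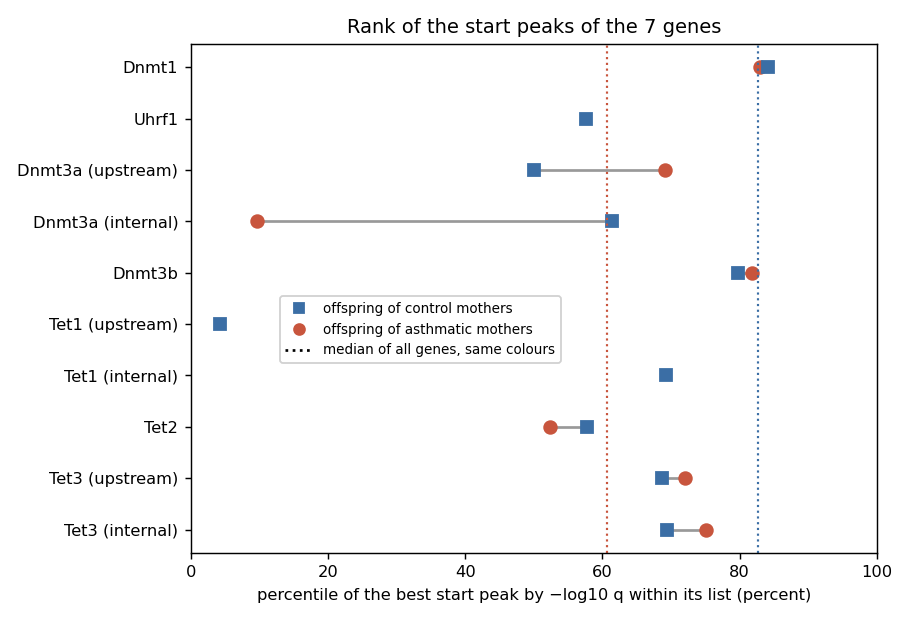
Percentile by −log10 q, within its own list, of the best start peak at each marked place of the 7 genes (blue squares, offspring of control mothers; red circles, offspring of asthmatic mothers; dotted lines, medians of all marked genes at 82.7 and 60.6). In the control list 9 of the 10 places lie left of the median of all genes, and the internal Dnmt3a place shows the longest distance between the lists, 51.7 points.

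Separate start domains, 2 or more in 1 gene, were found at Dnmt3a, Tet1 and Tet3 in the control list, which is 3 of 7 genes against 4.68% of genes with a start peak, and at Tet1 this rests on a peak at percentile 4.23. In the asthmatic list Dnmt3a and Tet3 had them, 2 of 5 genes against 3.77%. The 7 genes have a mean of 9 distinct starts and all protein-coding genes 4.25, and among genes with at least 5 starts the shares were 7.18% and 5.32%. At Dnmt1 and Dnmt3a, 2 of 5 genes, the widest domain was made of more peaks in the asthmatic list than in the control list, which held for 9.99% of genes marked in both. Summits lay downstream of the nearest start for 8 of 12 start peaks in the control list and for 9 of 11 in the asthmatic list, with a median of 75.5 and 101 bp. Over all pairs of a protein-coding gene and its start peak the shares were 69.0% and 70.7%. Of the 12 control start peaks 9 overlapped a peak of the asthmatic list, against 70.0% of all control start peaks. All 11 asthmatic start peaks overlapped a control peak, against 95.6% of all asthmatic start peaks.

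In the RefSeq promoters, the letters GGGCGG, the core of the SP1 motif, were found on either strand in 10 of the 12 promoters of the members, against 35.6% of 32817 promoters. The 2 without it were Dnmt1 promoters, the upstream one printed above and a further one at chr9:20952930-20953229. The NRF1 letters GCGCATGC were found in 2 promoters, both of Dnmt1 and including the downstream one printed above, where 2 matches on opposite strands overlap, against 2.71% of promoters. The E2F letters TTCCCGC occurred in 1 promoter, the upstream one of Uhrf1, against 4.6%, and the E-box letters CACGTG in the internal Dnmt3a promoter, against 7.15%. The ETS letters CCGGAAG (8.86% of promoters), the CRE letters TGACGTCA (1.79%) and the YY1 letters AAGATGGC (2.74%) were in none of the 12. The promoters of the members held 2 to 57 CpG, the most at Tet2, against a median of 7 over all promoters (quartiles 3 and 20). All motifs searched but that of YY1 hold a CpG themselves.

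Away from starts, the gene bodies held 2 peaks in the control list and 3 in the asthmatic list. At Tet2 both lists had a peak at chr3:133529219-133529428 and chr3:133529210-133529428, and each list had a further one, at chr3:133492739-133493016 in the control list and chr3:133492267-133492527 in the asthmatic list. All 4 lay wholly in repeat-masked introns, and the 75 bases around their summits occur at 213 to 2328 places of the genome, so that a read of that length cannot be placed at Tet2 alone. The remaining one was the C and T run in the Dnmt3a intron, 156 bp wide, with a −log10 q of 4.38 at percentile 11.6, 2430 bp from the nearest start. Its 75 summit bases occur at 1 place, while the run is wholly repeat-masked. The summits of all 23 start peaks had 75 bases that occur at 1 place.

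The genes that work with these enzymes were described from 6 lists of 58 genes, all found in the annotation. Of them 50 had a start peak in the control list and 41 in the asthmatic list, beside 50.9% and 41.9% of all genes. The control list alone marked 9 of them and the asthmatic list alone none, beside 9.71% and 0.722% of all genes. Among genes marked in the control list, that is 9 of 50 partner genes beside 2138 of 11206 genes. The 41 marked in both had a median width ratio of 0.649, 37 of them were narrower in the asthmatic list, and their median rank shift was −22.4 points, beside 0.664, 92.2% and −21.1 over all genes. Partners of maintenance methylation were marked in 8 and 7 of 9 genes, with a median ratio of 0.824, and Cdca7, which acts with the remodeller Hells, was marked in the control list alone. Partners of de novo methylation were marked in 5 and 4 of 6 genes (0.609), and Zfp57, which protects imprinted methylation, in the control list alone. Base excision and demethylation genes were marked in 13 and 10 of 14 (0.598), with the glycosylases Mbd4, Neil1 and Smug1 in the control list alone. Tet partners were marked in 7 and 5 of 8 (0.480), with Cxxc5 and D2hgdh, which clears the Tet inhibitor 2-hydroxyglutarate, in the control list alone. Readers of CpG methylation and CpG-binding proteins were marked in 9 and 9 of 9 (0.677). Genes of the methyl donor cycle were marked in 8 and 6 of 12 (0.671), with Ahcy, which hydrolyses S-adenosylhomocysteine, and Cbs in the control list alone. The control peaks of Cbs, Zfp57 and Cxxc5 were weak, at percentiles 4.23, 11.4 and 19.0 of that list. Those of the other partner genes marked in the control list alone stood from 66.4 (Neil1) to 94.4 (Cdca7).

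The partner genes with the highest width ratios were Tdg, the glycosylase that removes oxidised 5-methylcytosine, at 1.23 (365 bp in the control list and 450 bp in the asthmatic list), Hells at 1.17 (384 and 450 bp) and Mat2b at 1.09 (399 and 436 bp). Low ratios were found at the H3K4 methyltransferase Kmt2a, 0.139 (1280 and 178 bp), and at Gadd45b, 0.170 (1245 and 212 bp).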

How the data were processed

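H3K4me3 CATCH-seq was measured in 1 library of lung ILC2s per group. Per the labels and the paper's methods, the authors trimmed reads with Trim Galore and cutadapt, aligned them to mm10 (GRCm38) with Bowtie2 and removed duplicates with Sambamba; SAMtools and deepTools are also named, and coverage tracks were not used here. The paper's reporting summary states that peaks were not called on the ChIP-seq data, although these lists were provided. Some lysate was set aside for an input library. The peak caller, its threshold and whether the input served as a control are not given in the sources used here. The authors deposited for each peak a score, a fold (ratio of summit signal to background), a −log10 p (p-value) and a −log10 q (q-value). The smallest −log10 q was 2.02 in the control list and 2.01 in the asthmatic list.

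Positions are on GRCm38, counted from 1, with GENCODE vM21. A start was marked when a peak lay within 1000 bp, and neighbouring peaks with gaps of up to 1000 bp were joined; the widest joined domain at a start was the width of a gene. Shared peaks overlap by at least 1 bp. Fragments at summits were solved from fold and p under a Poisson model with 1 added to signal and background (99.99% of peaks within 0.01), which assumes that no control was used. Exact 95% intervals (Clopper-Pearson for shares, Poisson for fragments) cover counting error only.

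All 7 genes are named, and of the partner lists the genes marked in 1 list only, the 3 highest and 3 lowest width ratios, and for each gene marked in both lists the gene nearest in both log2 widths. Genes and lists were chosen with earlier results of these data known. An item that this rule names is not reported here. With 1 library per group no test was made. Tested on simulated data, 1500 of 1500 start calls, 1227 of 1227 joined widths, 428 of 428 overlaps and 1000 of 1000 solved fragments were recovered. The work used scipy 1.17.1, pandas 2.3.3, numpy 2.4.6 and, for figures, matplotlib 3.10.9 under Python 3.11.15.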

Additional observations from a re-analysis of the deposited data

How the results depend on the processing

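Of 109 values recomputed under another setting, 28 moved by more than 1.5 times (10 percentile points for ranks), 14 changed direction and 67 did neither. When each list was cut to its 10000 best peaks by −log10 p, 2 genes and 8 of their starts were marked in each list, with 34 partner genes in the control list and 6 in the asthmatic list, beside 32.2% and 9.32% of all genes. With the most upstream start of each gene alone, 4 and 3 of the 7 genes (4 and 3 starts) were marked, beside 47% and 38.3% of all genes. Widths in units of the narrowest peak of each list multiply every ratio by the same factor, which puts Dnmt1 at 1.14, Dnmt3a at 1.11 and the median of all genes at 0.809. Without joining, the median ratio was 0.558 for the 5 genes and 0.645 over all genes, with 0.487 for Dnmt1 and 0.454 for Dnmt3a. With a −log10 q of 5 or more the medians were 0.656 and 0.657, and over peak bases within domains 0.702 and 0.631, so the higher ratio of the genes depended on the measure of width. Ranked by fold, the median shift was 8.54 for the genes and −10.1 over all genes, and the shift turned to 1.65 points for Dnmt1, −9.07 for Dnmt3a and 9.76 for Tet2. Ranked by joined width, the median shift of the genes turned to −2.09 (−6.68 over all genes), with 4.69 for Dnmt1, −0.19 for Dnmt3a, −12.3 for Dnmt3b and −11.9 for Tet3. Ranked among best start peaks, the median shift was 35.7 (−4.97 over all genes), with 27.3 for Dnmt1 and 22.9 for Tet2, and among peaks under 50% repeat-masked it was 24.98 (−8.24 over all genes), with 18.4 for Dnmt1 and 17.5 for Tet2. The direction of the shift therefore depends on the measure ranked, while the median of the genes was above that of all genes under each of these rankings; the cause was not tested. With an overlap of at least 50% of both peaks, 41.7% of control and 45.5% of asthmatic start peaks of the genes were shared, beside 47.4% and 60.1% of all start peaks. With a summit at a single place in the genome, 0 and 1 gene body peaks remained.

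Marked genes stayed at 7 and 5 with a distance of 500 or 2000 bp, with a −log10 q of at least 5 and with protein-coding transcripts alone, while the shares of all genes were at least 49.5% and 37.3%. No paired analysis was possible because each group holds a single library. The missing replicates, the depth of each library, which is not given per library in the sources used here, and the threshold of the caller limit what an absent peak shows.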
